A study of Mus musculus with 24 samples.

Results

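The sex difference in liver gene expression was measured in treated mice that lacked both Foxa1 and Foxa2. It was taken from 8 of the 24 arrays of the series, which are the 4 arrays of treated double-knockout (dKO) males and the 4 of treated dKO females, and covers the 18480 autosomal genes among 19287 genes tested. Only genes whose probe lies on chromosomes 1 to 19 are described, so that genes of the X and Y chromosomes, which differ between the sexes by copy number, do not enter the counts.

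Every treated mouse was injected at 14 to 15 days with diethylnitrosamine (DEN), which starts liver tumours, at a dose of 20 mg/kg. From 2 weeks later they were given TCPOBOP, an activator of the nuclear receptor CAR that promotes liver tumours, at 3 mg/kg in 8 injections spaced 2 weeks apart. The groups used here, with 4 arrays each, were treated dKO males, treated dKO females, treated wild-type males and treated wild-type females. Untreated dKO females and untreated wild-type females, also 4 arrays each, entered the same fit, where they add to the estimate of the spread and to the choice of probes bright enough to test. Neither the Cre line, the deleted exons, the strain nor the age at collection is given in the sources used here. The labels call the tissue of every sample liver tumor, untreated samples included, and do not separate tumour from the liver around it. Nothing in the labels says that replicates came from separate animals, so p-values measure only the spread between these samples. That spread is 1 estimate per gene for all groups of the fit, although dKO female arrays resembled each other less than dKO male arrays. The comparison addresses which sex differences of the liver were present without Foxa1 and Foxa2 in a model of liver cancer.

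Many genes of mouse liver are expressed at different levels in the sexes. Growth hormone is secreted in pulses in males and almost continuously in females, and the pulses activate the transcription factor STAT5 in hepatocytes, which raises male-biased genes and lowers female-biased ones. CUX2, a homeobox factor made in female liver, represses male-biased genes there, and BCL6 represses female-biased genes in males. FOXA1 and FOXA2 are forkhead pioneer factors that open chromatin at hepatocyte enhancers and bind near the androgen and estrogen receptors.

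Levels are log2 processed signal minus the 75th percentile of the same array, so that a level of 0 is as bright as that percentile. Differences are male minus female on that log2 scale, given with the standard error of 1 limma fit over all 24 arrays and a p-value adjusted by Benjamini-Hochberg over all genes tested. Genes with an adjusted p under 0.05 are said to be called. Where a group was at background on all 4 arrays, the difference is given as a bound ("at least") from the lowest signal well above background. Each level belongs to 1 probe and cannot be set against the level of another probe, and probes are placed on mm9 as the files give them.

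Foxa1 was at background on all 8 dKO arrays, with levels of -7.31 ± 0.36 (SD, n = 4) in dKO males and -8.14 ± 0.15 in dKO females, against -2.64 ± 0.39 in wild-type males and -3.15 ± 0.16 in wild-type females. Foxa2 was above background on replicates 1 and 4 of dKO males (-2.83 and -3.63) and on replicates 1 and 3 of dKO females (-5.20 and -5.47), against wild-type means of 3.69 in males and 4.01 in females. Xist was high in all dKO females (4.57 to 4.88), but was also above background on replicates 1 and 4 of dKO males (-1.28 and -2.73) and not on replicates 2 and 3. The Y genes Ddx3y, Eif2s3y, Kdm5d and Uty were above background on all 4 dKO male arrays and on none of the dKO females. The 4 dKO male arrays resembled each other (median correlation of each array with the others of its group 0.986 to 0.989), whereas dKO female arrays were more scattered (0.961 to 0.978), with replicate 2 the lowest. Spots well above background made up 57.0% to 64.8% of each dKO male array and 65.0% to 68.4% of each dKO female array, and the spike-in slope was 0.955 to 1.01 in males and 0.923 to 0.985 in females. The number of arrays limits the precision. Slides 6 and 2 each held 1 dKO male and 1 dKO female array. All dKO female arrays and male replicates 1 and 4 lay at the 4th position of their slide, and male replicates 2 and 3 at the 3rd.

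In dKO mice 3780 autosomal genes, 20.5% of those tested, differed between males and females. Of these 2321 (12.6%) were higher and 1459 (7.9%) lower in males, and 569 and 566 of them differed by 2-fold or more. Genes called and measured above background on all 8 arrays numbered 3385. The 2 groups of 4 arrays did not overlap for 3612 genes (19.5%), and 2612 genes were both called and without overlap. The median difference of all genes was 0.07. With each array centred on its median instead, 1453 were higher and 1467 lower, so the excess of genes higher in males (61.4% of calls) depended on the scaling. In wild-type mice 1126 genes (6.09%) were called, 606 (3.28%) higher and 520 (2.81%) lower in males.

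The number of calls depended on the arrays and on the fit. The count was 2284 without female replicate 2, 5835 without female replicate 3 and 2241 without female replicate 4, and 1015 without replicates 2 and 4. It was 1087 when the fit held only the 8 dKO arrays and 1459 without the 2 male arrays with Xist signal, replicates 1 and 4. With array position as a covariate it was 1218. Of the 3780 called genes, 3723 had the same sign between the male and the female array of slide 6, and 3282 between those of slide 2. These arrays also entered the fit that called the genes, so part of this agreement follows from the choice of genes.

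**Figure D1:**
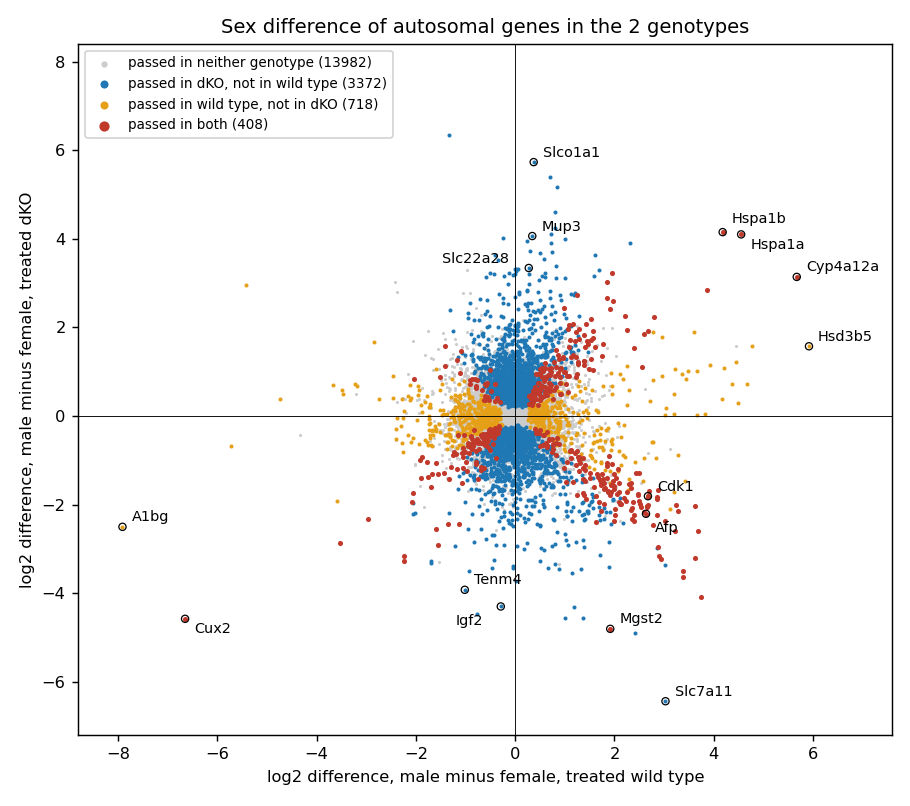
Male minus female difference (log2) of each of 18480 autosomal genes in treated dKO mice on the vertical axis and in treated wild-type mice on the horizontal axis, coloured by where the gene was called. 3372 genes were called in dKO only, 718 in wild type only and 408 in both, and the cloud has no slope (r = -0.04).

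Genes known to be higher in male mouse liver were higher in dKO males. Of 35 measured male-biased genes, 22 were higher and 1 lower, with a median difference of 1.32 against 0.07 for all genes. The mean level of these genes was 2.34, 2.81, 2.08 and 2.58 on the 4 dKO male arrays, above every dKO female array (1.08, 0.47, 1.25 and 1.1). In wild-type mice 11 were higher and none lower, with a median of 0.76. The dKO count was 16 higher with only the 8 dKO arrays, without female replicates 2 and 4, and without male replicates 1 and 4. The median was 1.40 between the arrays of slide 6 and 0.41 between those of slide 2.

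The largest called difference among male-biased genes was that of Slco1a1, an organic anion transporter (chr6:141857413-141857472). Its level was 1.1, 0.61, -1.99 and 0.39 in dKO males, against -4.65, -6.02, -6.50 and -5.65 in dKO females, where it was above background on 2 of 4 arrays. The groups were far apart, although male replicate 3 lay below the other males. The difference was 5.73 ± 0.96 (adjusted p = 0.000491), whereas wild-type males and females did not differ beyond the test (0.37 ± 0.96, adjusted p = 0.881). Clec2h, a C-type lectin gene (chr6:128626525-128626584), had 1.93, 1.72, 0.98 and 1.69 in dKO males and -2.0, -5.74, -3.29 and -3.30 in dKO females. It differed by 5.16 ± 0.52 (adjusted p = 3.15e-06), and by 0.85 ± 0.52 in wild type, which was not called. The serpin pseudogene Serpina4-ps1 (5.39 ± 0.61) and Gm7231, a predicted gene (6.33 ± 0.97), were the other genes past 5 log2 units, and the value of Gm7231 was the largest rise among called genes. Clec2h, Serpina4-ps1 and Gm7231 are not in the male-biased list.

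Major urinary proteins, lipocalins that male mice secrete in large amounts to carry pheromones, were all higher in dKO males. All 8 measured Mup genes were called, with a median of 2.39, and none was called in wild type (median 0.07). Mup3 (chr4:61744500-61744548) had 8.69, 9.08, 8.85 and 8.81 in dKO males and 4.76, 3.42, 6.06 and 4.93 in dKO females, a difference of 4.06 ± 0.48 (adjusted p = 2.08e-05). Mup5 differed by 3.07 ± 0.56. The lowest Mup levels were on female replicate 2 (mean of the family 2.90, against 5.91, 7.10 and 6.19 on female replicates 1, 3 and 4). Mup genes are near-identical copies whose transcripts can bind each other's probes, so that the 8 values are not independent. The transcript NAP026880-1, whose probe lies beside that of Mup3 on chromosome 4 (61745517 to 61745576), differed by 4.60 ± 0.57. With only the 8 dKO arrays 1 of the 8 was called, and 4 without female replicates 2 and 4.

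Among steroid, fatty acid and drug metabolising enzymes of the male programme, Cyp4a12a, an androgen-dependent fatty acid hydroxylase (chr4:115005343-115005402), kept a sex difference. It had 6.18, 6.86, 6.16 and 6.53 in dKO males, against 1.66, 5.07, 2.44 and 4.01 in dKO females. Males were alike while females spread over more than 3 log2 units, and the groups did not overlap. The difference was 3.14 ± 0.71 (adjusted p = 0.00475) in dKO and 5.67 ± 0.71 in wild type (adjusted p = 6.59e-05), and the difference between these was not called (-2.53, adjusted p = 0.0995). Its close copy Cyp4a12b differed by 2.84 ± 0.50. Cyp2c66, which is not in the male-biased list, had -0.47, -0.08, -0.98 and -0.43 in dKO males and -2.82, -4.70, -3.56 and -3.80 in dKO females. It differed by 3.23 ± 0.29 in dKO and 1.96 ± 0.29 in wild type, both called.

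Srd5a1, the steroid 5-alpha-reductase that turns testosterone into dihydrotestosterone (chr13:69712376-69712435), had 3.44, 3.81, 2.88 and 3.44 in dKO males and 1.41, 1.56, 1.46 and 1.41 in dKO females. Its female values were almost the same on all arrays, female replicate 2 included, and it differed by 1.93 ± 0.19 (adjusted p = 2.3e-06). Ugt2b1, a glucuronosyltransferase, rose by 2.23 ± 0.27, the carboxylesterase Ces3b by 3.68 ± 0.56, and Cyp7b1, which hydroxylates oxysterols in bile acid synthesis, by 1.46 ± 0.25. Cyp2d9, a steroid hydroxylase, was called at 1.09 ± 0.31 (adjusted p = 0.0178), but it was 0.39 and no longer called without female replicates 2 and 4. Car3, a carbonic anhydrase of fat, muscle and liver, rose by 2.99 ± 0.39, against a difference of 1.20 at its other probe. Srd5a1 and Car3 are not in the male-biased list.

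Of 20 organic ion transporters of the Slc22a family, 2 were higher and 1 lower, against 12.6% higher and 7.9% lower over all genes. Slc22a30 (chr19:8411250-8411309) had 3.84, 4.18, 3.52 and 3.96 in dKO males and 0.33, 0.27, 1.52 and 0.60 in dKO females. Slc22a28 (chr19:8136836-8136895) had 2.49, 2.70, 2.21 and 2.37 in dKO males and -1.33, -1.42, 0.09 and -0.93 in dKO females. These transporters differed by 3.20 ± 0.27 and 3.34 ± 0.29 (adjusted p = 3.94e-07 and 6.62e-07), against 0.28 ± 0.27 and 0.27 ± 0.29 in wild type. Slc22a28 stands in the list of female-biased liver genes used here, so its direction in dKO was the opposite of its list's name.

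Not every male-biased gene followed. Hsd3b5, a steroid dehydrogenase of male liver, had a level of 0.48 in wild-type males and -5.44 in wild-type females (5.92 ± 0.99, adjusted p = 0.00121). In dKO it had -5.00, -3.64, -5.57 and -4.71 in males, above background on 3 arrays, and -6.34, -6.45, -5.59 and -6.83 in females, above background on 1, a difference of 1.57 ± 0.99 that was not called (adjusted p = 0.271). Elovl3, a fatty acid elongase, was the single male-biased gene called lower in dKO males (-1.87 ± 0.61, adjusted p = 0.0358), where it was above background on 2 of 4 arrays. Its call was lost in 13 of the alternative fits, and it differed by 1.98 ± 0.61 in wild type (adjusted p = 0.0587). For both genes the dKO and wild-type differences themselves differed (-4.34, adjusted p = 0.0479, and -3.85, adjusted p = 0.00769).

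Genes outside the male-biased list were also among the 15 largest rises. Nox4, an NADPH oxidase that makes hydrogen peroxide (chr7:94545682-94545741), had 1.36, 1.31, 0.71 and 1.21 in dKO males and -1.81, -4.68, -2.14 and -2.75 in dKO females, and differed by 3.99 ± 0.44 (adjusted p = 1.04e-05). Olfr125, an olfactory receptor gene, was at background on all dKO female arrays and at least 6.5-fold higher in males (adjusted p = 7.5e-06). Of 271 olfactory receptor genes measured 12 were higher and none lower (median 0.23, 0.36 with genes at background set to their bound). That is a smaller share of higher genes than the 12.6% over all genes. The beta-defensin Defb19 (3.96 ± 0.66), the fast muscle myosin Myh2 (4.02 ± 0.78, above background on 3 of 4 female arrays, and -0.75 at another, dim probe), the melanocortin receptor Mc1r (3.72 ± 0.65), C530036F05Rik (4.11 ± 0.64) and the transcript NAP033351-1 (4.25 ± 0.67, on 2 of 4 female arrays) rose as well.

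**Figure D2:**
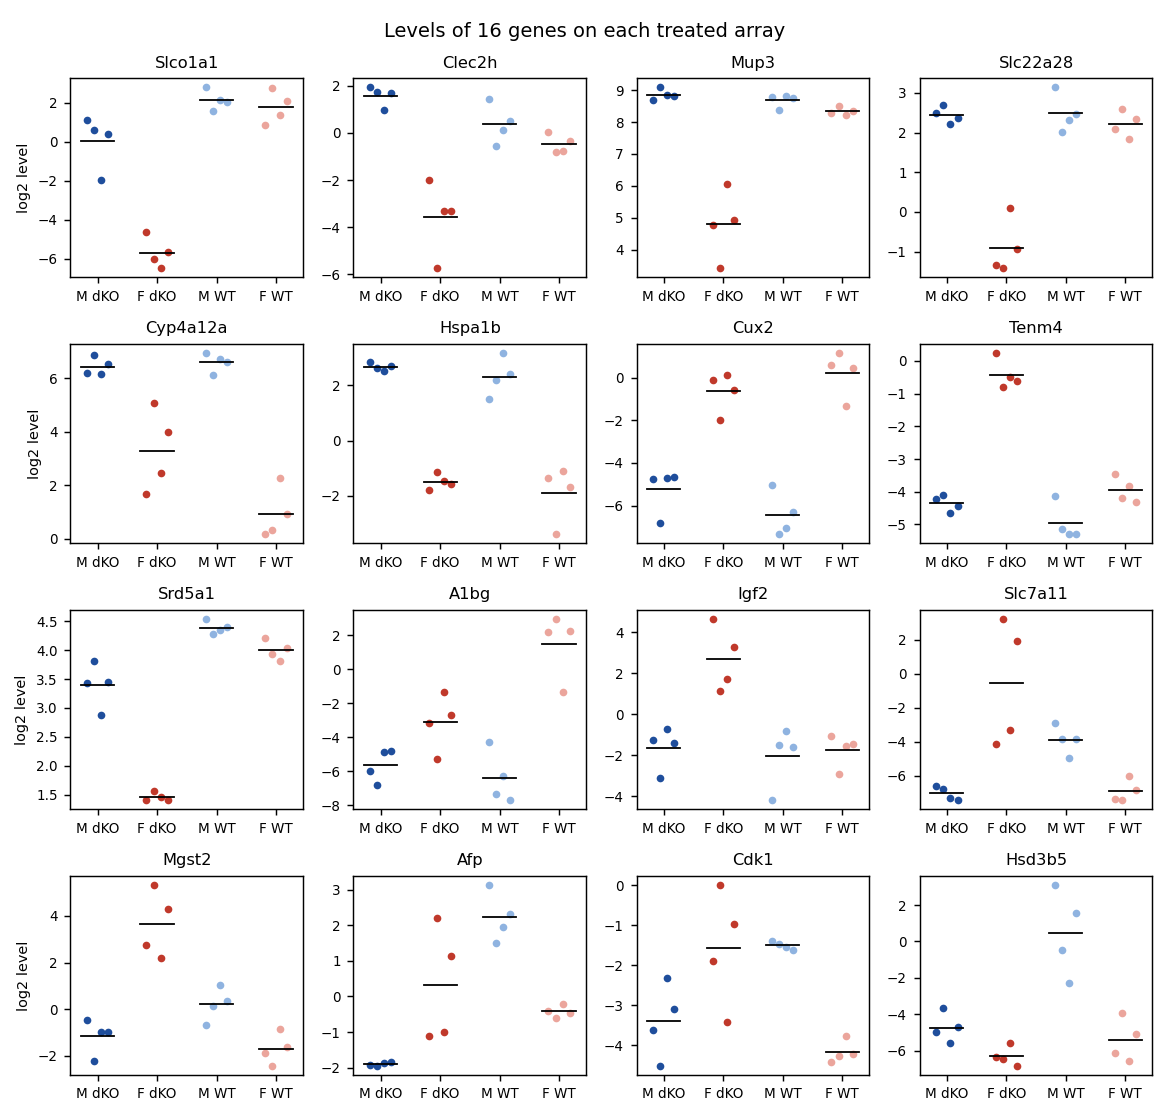
Level (log2 signal minus the array's 75th percentile) of 16 genes on each array of treated dKO males, dKO females, wild-type males and wild-type females, from left to right in each panel. Points are arrays and lines are group means. The sexes are far apart in dKO and close in wild type for Slco1a1, Mup3 and Slc22a28, and far apart in both for Hspa1b and Cux2.

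Cux2, the factor that represses male-biased genes in females (chr5:122310447-122310506), remained lower in males without Foxa1 and Foxa2. Its level was -4.74, -6.81, -4.69 and -4.66 in dKO males, above background on 3 arrays, and -0.09, -2.0, 0.12 and -0.60 in dKO females. No male array reached the lowest female array. The difference was -4.58 ± 0.58 (adjusted p = 3.9e-05). In wild-type males it was at background on all arrays and at least 39-fold lower than in wild-type females, and the dKO and wild-type differences did not differ beyond the test (adjusted p = 0.0988).

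Female-biased genes as a group were less uniform. Of 38 measured, 11 were lower, 2 higher and 25 not called in dKO males, with a median of -0.13. In wild type 9 were lower and 1 higher, with a median of -0.55. The mean level of the list was 1.33, 1.03, 1.36 and 1.34 in dKO males and 2.07, 0.15, 2.55 and 1.97 in dKO females, so that female replicate 2 lay below all males and the other females above them. Without female replicate 2 the median was -0.58, with 12 lower and 2 higher, and without female replicates 2 and 4 it was -0.71, with 14 lower and 1 higher.

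Slc16a5, a monocarboxylate transporter, had -2.66, -3.44, -2.81 and -2.75 in dKO males and -0.29, -0.90, 1.15 and 0.06 in dKO females. It differed by -2.92 ± 0.37 (adjusted p = 3.71e-05), and -1.56 ± 0.37 in wild type, also called. Acot3, a peroxisomal acyl-CoA thioesterase (-2.32 ± 0.56), and Hao2, a hydroxyacid oxidase (-1.97 ± 0.61, groups overlapping), were lower as well, at -2.97 ± 0.56 and -2.05 ± 0.61 in wild type. The dKO call of Acot3 was lost in 4 of the alternative fits and that of Hao2 in 9. Sybu, an adaptor between kinesin and its cargo, had -5.06, -5.20, -4.93 and -4.26 in dKO males, on 3 arrays above background, and -1.67, -1.81, -1.18 and -1.69 in dKO females. Its differences were -3.28 ± 0.32 in dKO and -2.23 ± 0.32 in wild type, both called. Tenm4, a teneurin of the cell surface, had -4.21, -4.09, -4.65 and -4.42 in dKO males and 0.23, -0.81, -0.49 and -0.60 in dKO females. It differed by -3.93 ± 0.33 (adjusted p = 3.94e-07) with no overlap, against -1.02 ± 0.33 in wild type, which was not called.

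Other well-known female-biased genes were not called in dKO. A1bg, a plasma glycoprotein, had -5.97, -6.85, -4.86 and -4.85 in dKO males, on 2 arrays above background, and -3.19, -5.27, -1.34 and -2.72 in dKO females. It was -2.50 ± 1.07 in dKO (adjusted p = 0.102), whereas in wild type it was at background on all male arrays and at least 95.3-fold lower than in females. Cyp17a1 (-1.11 ± 0.62), Sult3a1 (0.50 ± 1.85), Cyp2a4 (-0.11 ± 0.16), Cyp2b9 (0.96 ± 0.41) and Cyp2b13 (1.18 ± 0.46) were not called, and female replicate 2 was the lowest array for each of them.

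Among 28 genes of hormone receptors and the growth hormone and STAT5 pathway, 6 were higher and 3 lower in dKO males, with a median of 0.17. Over all genes 12.6% were higher and 7.9% lower. In wild type none of the 28 was higher and 6 were lower, with a median of -0.37. The sex difference was called more positive in dKO than in wild type for 10 of them and more negative for 1. Ghr, the growth hormone receptor, rose by 1.09 ± 0.23 (adjusted p = 0.00275), with 5.05, 5.40, 4.66 and 5.24 in dKO males and 3.88, 3.30, 4.88 and 3.94 in dKO females. Male replicate 3 lay below female replicate 3, the pair that shared slide 2, and the call was lost without female replicates 2 and 4. Onecut1, a hepatocyte factor that takes part in female-biased regulation, had 3.62, 2.85, 2.82 and 3.03 in dKO males and 2.07, 1.51, 2.48 and 2.0 in dKO females (1.06 ± 0.28, adjusted p = 0.0112). Hnf4a, a master regulator of hepatocytes, was 0.53 ± 0.17 higher (adjusted p = 0.0299), a call lost in 14 of the alternative fits. The estrogen receptor Esr1 differed by -0.81 ± 0.24, close to its -1.01 ± 0.24 in wild type, and its dKO call was lost in 7 of those fits.

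Igf1, Prlr, Bcl6, Stat5b and Socs2 did not pass the test in dKO. Igf1, the main growth hormone target, had 5.72, 6.06, 5.90 and 5.94 in dKO males and 5.67, 4.89, 6.25 and 5.58 in dKO females (0.31 ± 0.19, adjusted p = 0.246). In wild type it was lower in males (-1.14 ± 0.19, adjusted p = 0.000895), and the differences themselves differed (1.45, adjusted p = 0.00197). Prlr, the prolactin receptor, was -0.65 ± 0.33 in dKO and -1.75 ± 0.33 in wild type, where it was called. Bcl6 was 1.08 ± 0.57 without overlap of the groups, Stat5b 0.28 ± 0.15 and Socs2, a STAT5-induced inhibitor, -0.36 ± 0.54. Of 15 forkhead factors 7 were past the test as higher and 1 as lower, and 1 of the 7 is Foxa1, which was at background in both groups and has no fold. Without female replicate 2 the count was 2 higher and 1 lower. Foxo1, an effector of insulin signalling, had 2.71, 3.13, 2.58 and 2.79 in dKO males and 1.95, 1.65, 1.94 and 1.68 in dKO females (1.0 ± 0.13, adjusted p = 7.16e-05). Foxa3, the third FOXA gene, was 0.83 ± 0.27 higher (adjusted p = 0.0369), a call lost in 14 of the alternative fits.

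The inducible heat shock genes were higher in males of both genotypes. Hspa1b (chr17:35094200-35094259), which encodes the stress-inducible chaperone HSP70, had 2.84, 2.61, 2.51 and 2.69 in dKO males and -1.78, -1.15, -1.46 and -1.57 in dKO females. All male arrays lay far above all female arrays, and the arrays of each sex were close together. The difference was 4.15 ± 0.39 (adjusted p = 1.6e-06) in dKO and 4.18 ± 0.39 (adjusted p = 2.38e-06) in wild type. Its near-identical copy Hspa1a (chr17:35106766-35106825) differed by 4.10 ± 0.51 in dKO and 4.55 ± 0.51 in wild type, and the probes of these copies may each detect both. Hsph1, the HSP110 partner of HSP70, had 5.09, 4.62, 4.99 and 5.02 in dKO males and 2.70, 2.70, 2.97 and 2.65 in dKO females (2.18 ± 0.21), and the HSP40 co-chaperone Dnajb1 rose by 1.56 ± 0.15. Of 69 genes named Hsp, Dnaj, Bag3 or Hsf, 20 were higher, 6 lower and 43 not called, with a median of 0.16. In wild type 12 were higher and none lower.

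Hspa1a, Hspa1b, Hsph1 and Dnajb1 stayed called under every alternative fit. Of the whole list 14 were higher and none lower without female replicates 2 and 4, and 12 and none without male replicates 1 and 4.

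The promoters of Hspa1b and Hspa1a, which moved together, and of the genes with the largest transporter differences in each direction, Slco1a1 and Slc7a11, are shown from 250 bases before to 50 after the annotated start, 5′ to 3′ (RefSeq, GRCm38.p6). Capitals mark the motifs searched on both strands, which were the forkhead motifs TGTTTAC and TGTTTGC, the STAT5 motif TTCNNNGAA, the heat shock element core GAANNTTC and the antioxidant response core TGACNNNGC. The heat shock and antioxidant motifs were chosen after the values were seen.
Hspa1b, chr17:34959189-34959488, minus strand: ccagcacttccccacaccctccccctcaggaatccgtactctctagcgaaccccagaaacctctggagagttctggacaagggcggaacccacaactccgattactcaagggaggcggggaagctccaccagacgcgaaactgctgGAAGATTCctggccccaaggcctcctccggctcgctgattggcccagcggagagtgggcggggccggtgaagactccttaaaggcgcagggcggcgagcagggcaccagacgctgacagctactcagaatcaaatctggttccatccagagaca
Hspa1a, chr17:34972107-34972406, minus strand: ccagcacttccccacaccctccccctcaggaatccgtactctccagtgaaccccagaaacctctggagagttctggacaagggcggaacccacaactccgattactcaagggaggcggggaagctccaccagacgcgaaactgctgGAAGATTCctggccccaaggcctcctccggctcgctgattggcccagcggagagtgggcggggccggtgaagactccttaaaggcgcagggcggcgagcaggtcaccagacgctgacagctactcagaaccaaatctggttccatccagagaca
Slco1a1, chr6:141946913-141947212, minus strand: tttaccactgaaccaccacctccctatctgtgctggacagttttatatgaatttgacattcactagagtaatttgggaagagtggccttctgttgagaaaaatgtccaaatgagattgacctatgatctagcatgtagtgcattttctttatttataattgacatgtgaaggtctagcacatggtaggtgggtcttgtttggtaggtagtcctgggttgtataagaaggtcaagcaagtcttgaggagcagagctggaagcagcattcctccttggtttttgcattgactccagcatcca
Slc7a11, chr3:50443564-50443863, minus strand: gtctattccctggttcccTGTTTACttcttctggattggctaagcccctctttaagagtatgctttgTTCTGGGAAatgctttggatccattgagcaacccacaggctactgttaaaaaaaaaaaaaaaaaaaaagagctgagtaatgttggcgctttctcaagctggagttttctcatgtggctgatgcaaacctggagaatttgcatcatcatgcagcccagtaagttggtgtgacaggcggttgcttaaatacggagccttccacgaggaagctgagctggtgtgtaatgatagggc

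The Hspa1b and Hspa1a promoters differed at 4 of 300 bases, and both held GAAGATTC starting 104 bases before the start site. The core GAANNTTC was present in 9 of 19 promoters (47.4%) of heat shock list genes higher in dKO males, namely Bag3, Dnaja1, Dnajb6, Hspa1a, Hspa1b, Hspb1, Hspb8, Hspe1 and Hsph1. It was present in 1 of 37 promoters (2.7%) of list genes not higher, Dnajc27, and in 6.02% of all 11634 tested autosomal genes with a promoter. A forkhead motif was found in 6.58% of the 1353 promoters of genes higher in dKO males, in 5.69% of the 1037 of genes lower and in 6.39% of all. The STAT5 motif was present in 7.24%, 7.04% and 7.37% of the same promoters. The antioxidant response core TGACNNNGC was present in 3 of 15 promoters (20.0%) of NRF2 targets lower in dKO males. It was present in 15.7% of the promoters of genes higher, in 13.9% of those of genes lower and in 14.5% of all. Slco1a1 held none of the motifs in this window, and Slc7a11 held TGTTTAC and TTCTGGGAA. A match is a description of the sequence and not of binding.

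Among clock, ER stress and growth-response genes, Per1 and Ccn2 moved the same way in dKO and wild type. Per1, a core clock repressor also induced by stress hormones, had 2.34, 2.37, 2.18 and 2.38 in dKO males and 0.85, 0.11, 1.04 and 0.48 in dKO females. It rose by 1.70 ± 0.17 (adjusted p = 3.15e-06) in dKO and by 1.20 ± 0.17 in wild type. Ciart, another clock repressor, rose by 2.62 ± 0.45 in dKO and differed by 0.50 ± 0.45 in wild type, which was not called. Of 22 clock genes 10 were higher and 1 lower in dKO, with a median of 0.65, and 3 and none with only the 8 dKO arrays. In wild type 1 of the 22 was higher and 1 lower, with a median of -0.10. The mean level of the clock list was 0.63 to 0.92 in dKO males and 0.17, -0.51, 0.66 and 0.09 in dKO females. Female replicate 2 was thus lowest, and female replicate 3 lay among the males. Without female replicate 2 the dKO count was 6 higher and 1 lower (median 0.41), and between the dKO arrays of slide 2 the median was -0.06. Of 27 ER stress genes 7 were higher and 2 lower, led by Herpud1, a degradation factor of the ER membrane (1.59 ± 0.24), and Creld2, an ER chaperone (1.30 ± 0.18). The 7 calls numbered 7 as well with only the 8 dKO arrays, without female replicates 2 and 4, and without male replicates 1 and 4. Ccn2, a matrix protein induced by YAP, rose by 1.34 ± 0.19 in dKO and 1.74 ± 0.19 in wild type.

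Genes of cell division were lower in dKO males, the reverse of wild type. Of 38 mitosis genes 32 were lower and none higher in dKO males, with a median of -1.64, whereas 28 were higher and none lower in wild-type males, with a median of 1.97. For 34 of the 38 the dKO and wild-type differences themselves differed, all in the negative direction. The mean level of the list was -2.86, -3.04, -2.0 and -2.52 on the dKO male arrays and -1.55, 0.15, -2.43 and -0.67 on the dKO female arrays. Female replicate 3 thus lay among the males, and female replicate 2 was the highest.

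Mki67, a marker of proliferating cells (chr7:142881591-142881650), had -0.76, -0.93, 0.02 and -0.48 in dKO males and 0.57, 2.44, 0.17 and 1.59 in dKO females. It differed by -1.73 ± 0.40 (adjusted p = 0.00542), and by 1.37 ± 0.40 in wild type. Cdk1, the kinase that starts mitosis, had -3.62, -4.52, -2.32 and -3.09 in dKO males, on 3 arrays above background, and -1.90, 0.01, -3.43 and -0.98 in dKO females. It differed by -1.81 ± 0.53 in dKO and 2.67 ± 0.53 in wild type, both called. Hmmr (-2.25 ± 0.52), Ccnb1, the cyclin partner of Cdk1 (-2.14 ± 0.62), and Foxm1, the forkhead factor that drives mitotic genes (-1.75 ± 0.41), were lower with overlapping groups. Of 37 DNA replication genes 25 were lower and 2 higher (median -0.68), with Mcm2, a helicase subunit, at -1.48 ± 0.28. Ccnd1, the cyclin of the early cell cycle, differed by -1.33 ± 0.32, and Myc -1.11 ± 0.25 lower.

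Fewer mitosis genes were called with fewer arrays. None was called lower with only the 8 dKO arrays, where the median stayed at -1.64 and only the estimate of the spread changed. None was called lower without female replicates 2 and 4 either, where the median was -0.71 and 1 gene was called higher. The count was 16 without female replicate 2, 18 without female replicate 4 and 6 without male replicates 1 and 4. Between the male and the female array of slide 2 the median was 0.41, and between those of slide 6 it was -1.60. DNA replication genes gave none, 2 and 11 lower under the same 3 reductions.

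Genes of fetal liver and liver tumours were lower in dKO males, with 15 of 32 lower, 1 higher and a median of -1.18. Igf2, a fetal growth factor (chr7:149836673-149836709), had -1.24, -3.12, -0.72 and -1.43 in dKO males and 4.63, 1.11, 1.71 and 3.27 in dKO females. The groups were well apart, and it differed by -4.30 ± 0.71 (adjusted p = 0.000434), against -0.29 ± 0.71 in wild type. H19, the imprinted noncoding RNA beside Igf2, had -1.92, -2.99, -0.79 and -1.69 in dKO males and 3.70, -0.31, 0.96 and 2.07 in dKO females (-3.45 ± 0.85). On both genes female replicate 1 was the highest array, unlike the mitosis genes. Afp, which encodes alpha-fetoprotein, a serum protein of the fetus and of hepatocellular carcinoma, had -1.94, -1.95, -1.86 and -1.85 in dKO males and -1.11, 2.21, -1.0 and 1.14 in dKO females. It differed by -2.21 ± 0.52 (adjusted p = 0.00623) in dKO and by 2.64 ± 0.52 (adjusted p = 0.00442) in wild type. Without female replicates 2 and 4 the Afp difference was -0.84 and not called, that of Igf2 was -4.79 and called, and 6 of the 32 list genes were lower.

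Targets of NRF2, the factor that switches on antioxidant genes, were lower in dKO males, with 16 of 28 lower and none higher (median -0.90). Slc7a11, which imports cystine for glutathione synthesis (chr3:50169700-50169759), was at background on all 4 dKO male arrays. In dKO females it had -4.11, 3.20, -3.30 and 1.93, so that replicates 2 and 4 were far brighter than 1 and 3. It was at least 25.1-fold lower in males (adjusted p = 0.000568). Mgst2, a microsomal glutathione transferase (chr3:51486449-51486508), had -0.48, -2.22, -0.98 and -0.97 in dKO males and 2.76, 5.33, 2.18 and 4.32 in dKO females, a difference of -4.81 ± 0.53 (adjusted p = 1.04e-05), and 1.91 ± 0.53 in wild type, also called. Cbr3, a carbonyl reductase, had 2.57, 1.79, 3.12 and 2.62 in dKO males and 4.23, 8.13, 3.43 and 7.22 in dKO females. It differed by -3.23 ± 0.67 in dKO and by 2.93 ± 0.67 in wild type, both called. The exporter Abcc4 differed by -3.03 ± 0.42 and differed by 0.59 ± 0.42 in wild type, which was not called.

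The mean level of the NRF2 targets was 2.83, 2.50, 3.06 and 2.83 in dKO males and 3.82, 5.27, 3.14 and 4.71 in dKO females, with no overlap. Between the arrays of slide 2 their median was 0.20 and between those of slide 6 it was -1.08. Lower calls numbered 3 with only the 8 dKO arrays, 7 without female replicates 2 and 4 and 8 without male replicates 1 and 4. Without female replicates 2 and 4 Mgst2 (-3.63) and Cbr3 (-1.31) were still called, as was Slc7a11.

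Most of the other genes with the largest falls in dKO males had the same pattern, with dKO female replicates 2 and 4 brightest. Ly6d, a surface protein of the Ly6 family, had 0.15, -0.08, 2.47 and 1.21 in dKO males and 4.10, 6.52, 2.25 and 5.44 in dKO females (-3.65 ± 0.79, groups overlapping), and differed by 3.39 ± 0.79 in wild type. Rbp7, a retinol-binding protein, differed by -4.09 ± 0.86 in dKO and by 3.75 ± 0.86 in wild type, and Fam83a by -3.50 ± 0.66 in dKO and 3.38 ± 0.66 in wild type. The melanotransferrin gene Meltf (-4.32 ± 0.89), the zinc transporter Slc39a5 (-3.72 ± 0.63), the calcium pump Atp2b2 (-3.54 ± 0.53), the steroid dehydrogenase Akr1c18 (-4.57 ± 1.07) and the transcript ENSMUST00000098718 (-4.90 ± 1.18) were above background on 2 or 3 of 4 dKO male arrays. Tekt5, a tektin of cilia and sperm tails, was at least 10.2-fold lower and the serpin Serpinb9e at least 15.1-fold lower, both at background in dKO males. Pla2g4f, a phospholipase, was at least 2.40-fold lower, and was even across dKO females (-4.74, -3.35, -3.71 and -4.04).

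**Figure D3:**
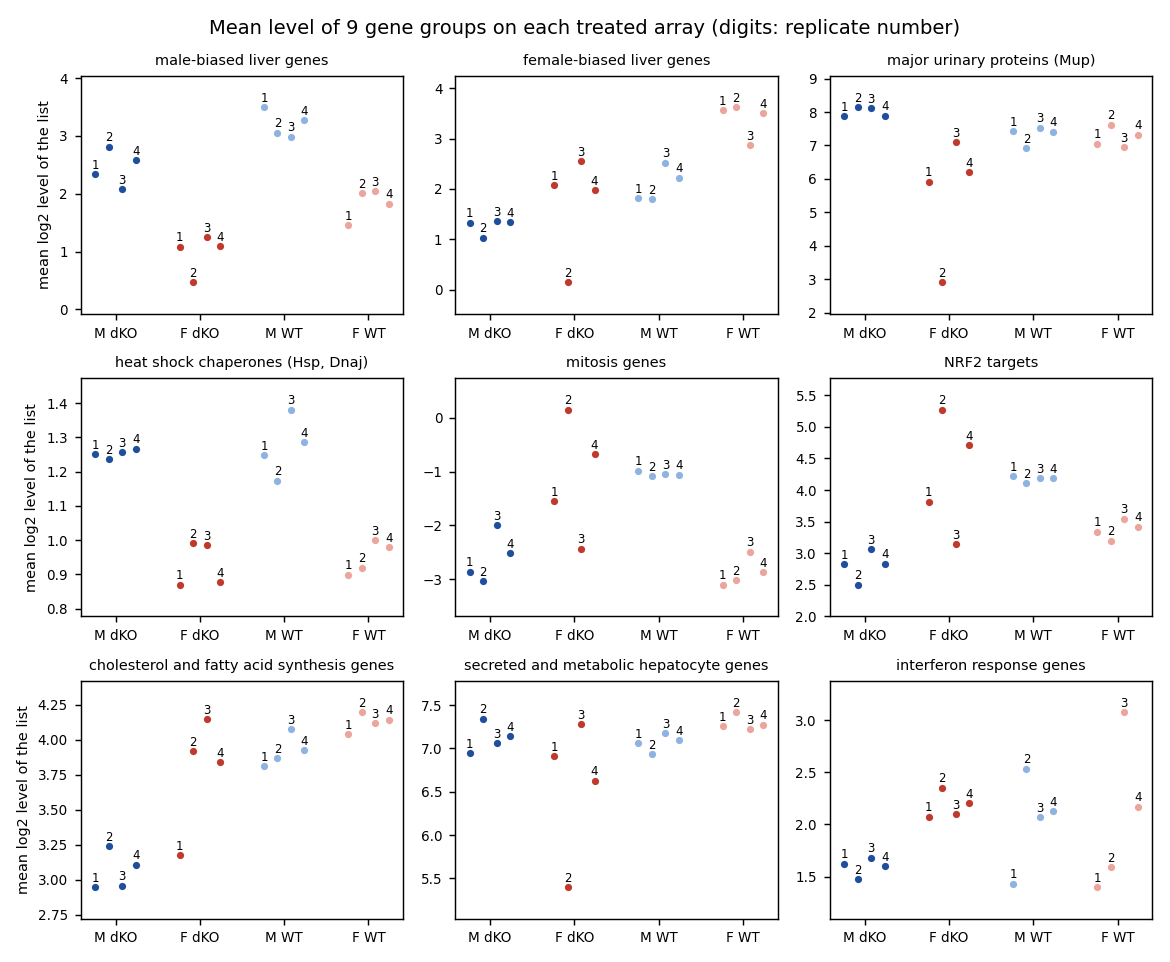
Mean level (log2) of 9 gene groups on each array of treated dKO males, dKO females, wild-type males and wild-type females, with the replicate number above each point. Every dKO male array is above every dKO female array for male-biased and heat shock genes, whereas mitosis genes and NRF2 targets are highest on dKO female replicates 2 and 4, and hepatocyte genes are lowest on replicate 2.

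Of 37 genes of cholesterol and fatty acid synthesis 18 were lower, 1 higher and 18 not called in dKO males, with a median of -0.83. Mvd, which makes isopentenyl pyrophosphate in the mevalonate pathway, had 0.52, 0.83, 0.77 and 0.97 in dKO males and 1.71, 2.68, 3.08 and 2.47 in dKO females (-1.71 ± 0.29, adjusted p = 0.000537). Pnpla3, a lipid droplet protein induced by SREBP factors, had -2.90, -2.69, -1.26 and -2.38 in dKO males and -0.53, 2.51, 0.40 and 1.51 in dKO females (-3.28 ± 0.66). The mean level of the list was 2.94 to 3.24 in dKO males and 3.17, 3.92, 4.15 and 3.84 in dKO females, where female replicate 1 lay among the males. Within slides the median was -0.01 on slide 6, which held that array, and -1.29 on slide 2. Lower calls numbered 7, 8 and 6 with only the 8 dKO arrays, without female replicates 2 and 4, and without male replicates 1 and 4.

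Genes of fatty acid oxidation that PPARA controls were mixed, with 7 of 41 higher, 11 lower and a median of -0.15. Cyp4a10, a fatty acid hydroxylase, had 0.07, 0.08, 1.06 and 0.77 in dKO males and 2.11, 2.12, 2.77 and 2.06 in dKO females (-1.77 ± 0.28, adjusted p = 0.000257). Of the other Cyp4a10 probes 2 had differences of -1.98 and -1.42, but another bright one had 1.45, so that the probes of this gene disagree. The related Cyp4a31 was at background on all dKO male arrays and at least 3.14-fold lower. Fgf21, a secreted fasting hormone of the liver, differed by -2.99 ± 0.85 (adjusted p = 0.0185) with overlapping groups, and its call was lost without either female replicate 2 or female replicate 4. Of 42 CAR and xenobiotic targets 10 were higher and 4 lower (median 0.36), and Cyp2b10, the classic CAR target, was not called (1.12 ± 0.45, adjusted p = 0.0817), with 1.88 on female replicate 2 against 4.49 to 5.42 on the other females. Cyp7a1, the rate-limiting enzyme of bile acid synthesis, was not called (0.45 ± 0.81), and its sign turned without female replicate 2.

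Markers of cell types were followed on the same arrays. In bulk RNA fewer cells of a type and less RNA per cell cannot be told apart. Of 34 secreted and metabolic hepatocyte genes 8 were higher and none lower in dKO males (median 0.45), with a mean level of 6.94, 7.34, 7.06 and 7.14 in dKO males and 6.91, 5.40, 7.28 and 6.63 in dKO females. Female replicate 2 stood apart from all other arrays, and without female replicates 2 and 4 none was called and the median was 0.04. The part of these lower hepatocyte levels in the results above was not tested, beyond the counts given without that array. Alb, albumin, was 0.38 ± 0.15 and not called, and it was bright on all 8 arrays (9.51 to 9.90 in dKO males, 8.99 to 9.59 in dKO females). Glul, glutamine synthetase of the cells around the central vein, differed by 0.01 ± 0.22. Cyp2e1, another pericentral gene, was called at 1.72 ± 0.55, with 2.96 on female replicate 2 against 6.35 to 7.29 on the other females, a call lost without female replicates 2 and 4 (0.52). Of 22 periportal and urea cycle genes 3 were higher and 3 lower in dKO males, with a median of 0.57. Over all genes 12.6% were higher and 7.9% lower in dKO, and 3.28% higher and 2.81% lower in wild type. Of the periportal list none was higher and 7 were lower in wild type, with a median of -0.69. Among those lower was Gldc, a glycine-cleaving enzyme, at -1.32 ± 0.26 in dKO and -1.67 ± 0.26 in wild type.

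Markers of other cell types are read beside the shares over all genes, 12.6% higher and 7.9% lower. Bile duct markers had 1 higher and 3 lower of 31, with a median of 0.04. The higher one was Onecut1 (1.06), and the lower ones were Ggt1 (-2.99), Prom1 (-2.26) and Spp1 (-1.48). Krt7 (1.15 ± 0.45), Krt19 (1.0 ± 0.48) and Epcam (1.31 ± 0.47), which were named whatever their values, were not called. Genes of stellate cells, fibroblasts and matrix had none higher and 4 lower of 36 (median -0.32). Col1a1, the main collagen of fibrous tissue, had 2.89, 2.64, 2.98 and 2.80 in dKO males and 2.90, 5.13, 2.77 and 4.18 in dKO females and was not called (-0.92 ± 0.43). Macrophage markers had 3 of 28 lower and none higher, with a median of -0.77 and mean levels of 0.94 to 1.24 in dKO males against 2.12, 2.36, 0.99 and 2.10 in dKO females. T and NK cell markers had no call among 25, B and plasma cell markers 5 lower of 15, and endothelial markers 7 higher and 1 lower of 33. Interferon response genes, in contrast, were even across females, with 10 of 37 lower and none higher (median -0.58) and mean levels of 1.47 to 1.68 in dKO males and 2.07 to 2.35 in dKO females. Ifit1 had 0.51, -0.16, 0.58 and 0.29 in dKO males and 2.05, 1.93, 1.73 and 1.82 in dKO females (-1.58 ± 0.37, adjusted p = 0.00632), and Zbp1, a sensor of nucleic acids, differed by -1.30 ± 0.28.

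**Figure D4:**
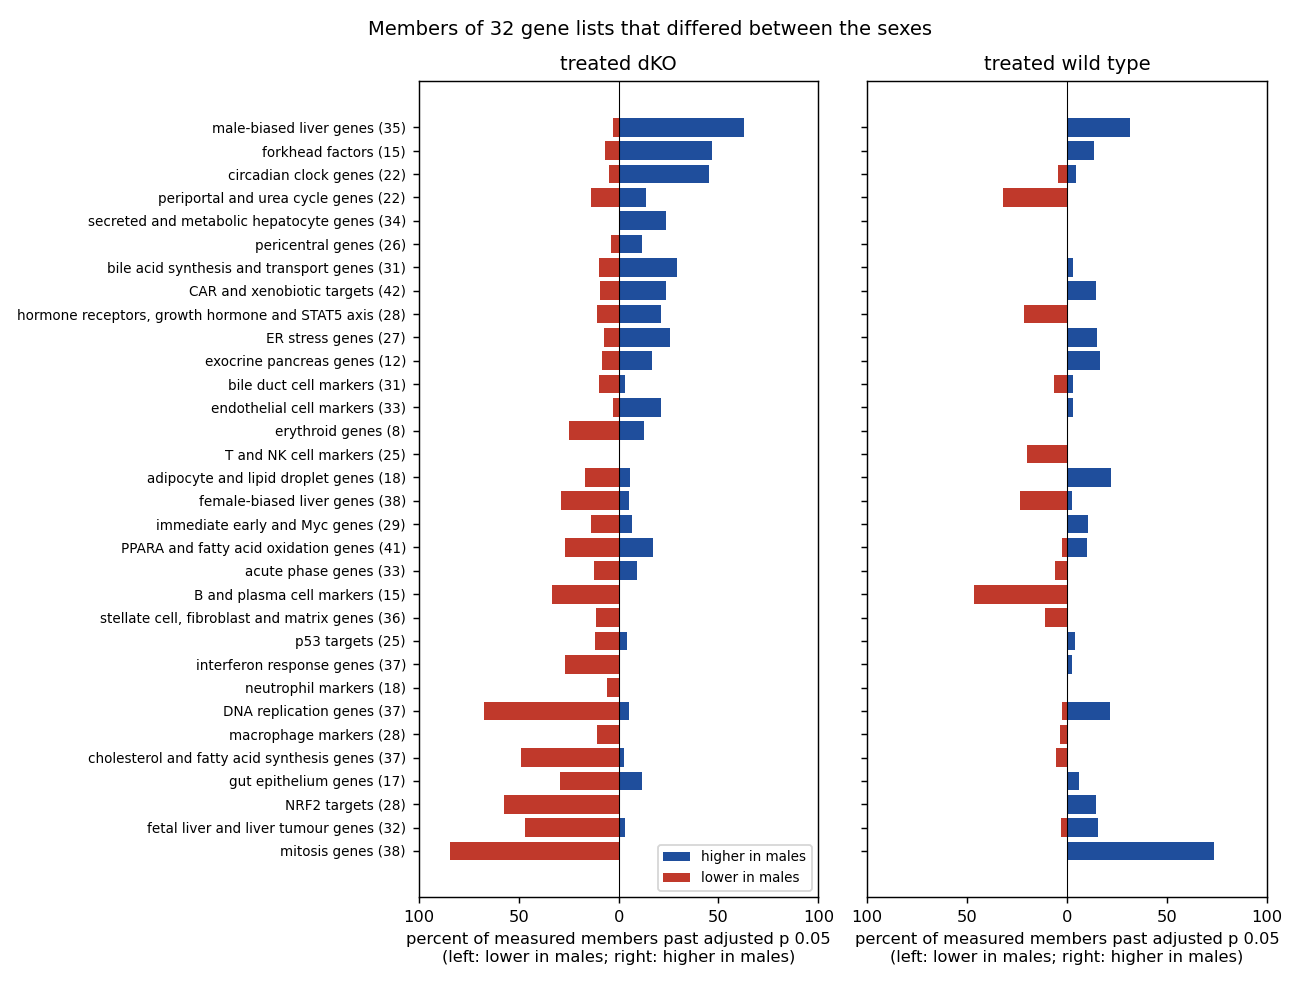
Genes called higher (to the right) and lower (to the left) in males as a share of the measured members of 32 gene lists, in treated dKO and in treated wild-type mice. The male-biased list is mostly to the right in both, and mitosis genes are to the left in dKO and to the right in wild type.

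The dKO and wild-type sex differences share no array, and they were compared gene by gene. Of the 3780 genes called in dKO 408 were also called in wild type, which is 10.8% of the dKO calls and 36.2% of the 1126 wild-type calls. Over all genes tested 6.09% were called in wild type and 20.5% in dKO. Of the 408 shared genes 240 had the same sign and 168 the opposite sign. Across the 18480 genes, which are not independent replicates, the differences had a correlation of -0.04. Genes called in wild type had a median absolute difference of 0.88 in wild type and 0.40 in dKO, and genes called in dKO 0.69 in dKO and 0.21 in wild type. Each set was chosen by the comparison in which its difference is the larger, so part of that gap follows from the choice. The test of the difference between the sex differences called 2342 genes (12.7%), 1372 (7.42%) more positive and 970 (5.25%) more negative in dKO, and 1564 of the 3780 dKO calls (41.4%) were among them. The median of this quantity over all genes was 0.11.

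Shared with the same sign and largest in dKO were Cux2, Hspa1b, Hspa1a, Sybu and Cyp2c66. Called with opposite signs and largest in dKO were Mgst2, Rbp7, Ly6d, Fam83a and Cbr3, all lower in dKO males and higher in wild-type males. The most positive differences between the genotypes among genes called in dKO were those of Gm7231 (7.67), Slco1a1 (5.36), Serpina4-ps1 (4.70), Clec2h (4.31) and Myh2 (4.26). The most negative were those of Slc7a11, Rbp7 (-7.85), ENSMUST00000098718, Ly6d (-7.04) and Fam83a (-6.88), where Slc7a11 and ENSMUST00000098718 carry no size because a group was at background throughout. For Slco1a1 the wild-type means were 2.12 in males and 1.75 in females, so that both dKO groups lay below them and dKO females by more.

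Across 8 settings the higher calls of male-biased genes stayed between 16 and 22 and those of heat shock genes between 12 and 20, while the lower calls of mitosis genes ran between 0 and 32.

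**Figure D5:**
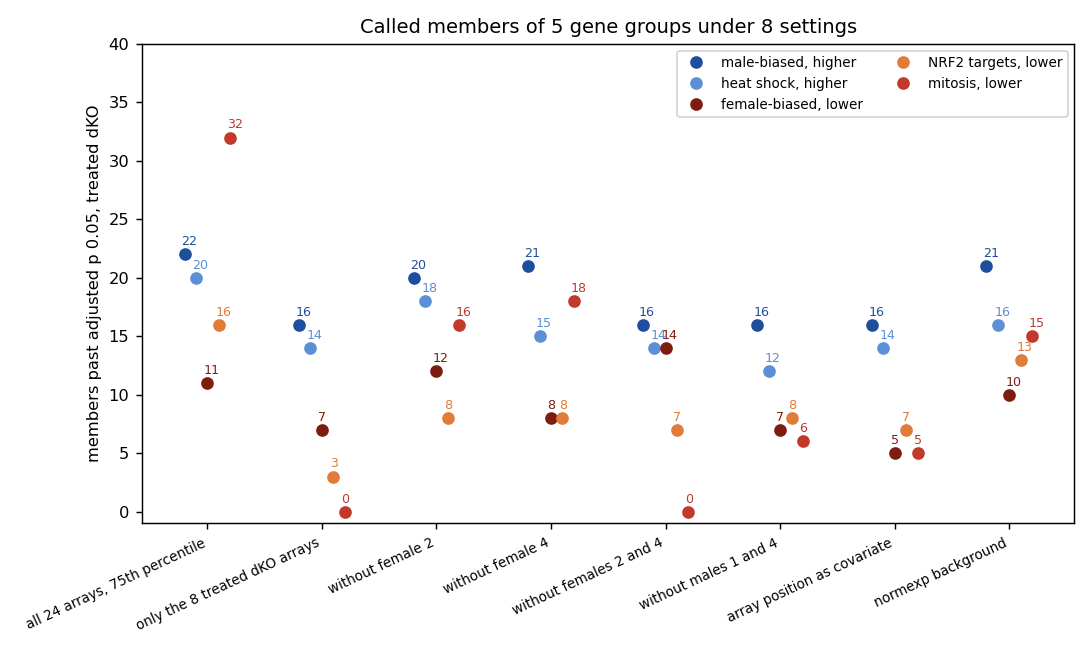
Number of members past an adjusted p of 0.05 in treated dKO (vertical axis) for 5 gene groups under 8 settings (horizontal axis), with the count beside each point. The mitosis count drops to 0 with only the 8 dKO arrays and without dKO female replicates 2 and 4, and the male-biased count does not go below 16.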

How the data were processed

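Liver RNA of 24 samples (6 groups of 4) was hybridised to 1-colour Agilent 44K mouse arrays after WT-Ovation Pico amplification and Cy3 labelling, per the labels' protocols. The deposited intensity values are the background-subtracted processed signals of Agilent Feature Extraction (10.5.1.1 per the file headers, 9.53 per the submitters' processing notes). The deposited table of the authors' comparisons holds signed folds as a score and false discovery rates in percent, and was used only as a check. Groups were taken from the sample titles.

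Signals of non-control spots were set to log2 minus each array's 75th percentile, outlier spots were left out, and spots of 1 probe were averaged. A probe entered the fit if it was well above background on 4 or more of the 24 arrays (28048 probes), and 1 probe per gene gave 19287 genes. One limma 3.58.1 fit (R 4.3.3) over the 6 groups tested male minus female in treated dKO mice, the same in wild type, and the difference between them, with Benjamini-Hochberg adjustment over all genes. The fit was tested on simulated data. Each simulated gene had the same spread in all groups, so that test does not cover the wider spread of dKO females.

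Members and gene lists were chosen with earlier results of these data known. Lists are described by counts and medians, without a set test. Named genes were the 15 highest and 15 lowest called genes without overlap, up to 4 leading members of a list, a set of liver genes named whatever their values, and the leading genes of the genotype comparison. Of that set Gpc3, Mup20 and Sult2a1 are not reported here. Another gene of that set is also not reported here. Alternatives varied background correction, scaling, filter, probe choice, slide, array position, replicate block and arrays used. The number of arrays limits the precision. Promoters came from RefSeq (GRCm38.p6), and probe positions are mm9. Exon and UTR positions of probes were not analysed here.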

Additional observations from a re-analysis of the deposited data

Results flagged for a closer look

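Levels of a single array stood apart from the other 3 of their group for 6 of 208 pairs of a named gene and a dKO group, and for 2 of 100 pairs of a list mean and a group. Chance gives about 1 in 20 groups. In dKO males they were Serpina4-ps1 on replicate 3 (0.77, the others 2.40 to 2.65), Cux2 on replicate 2 (-6.81, the others -4.74 to -4.66), Cyp2b9 on replicate 3 (6.90, the others 7.12 to 7.15) and Tekt5 on replicate 3 (-5.39, at background). In dKO females they were Hsph1 on replicate 3 (2.97, the others 2.65 to 2.70) and Cyp4a10 on replicate 3 (2.77, the others 2.06 to 2.12). The list means were those of female-biased genes (1.03) and of collagens (-2.05), both on dKO male replicate 2.

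The sex difference was itself different between dKO and wild type for 59 of the 104 named genes, by limma's test of that difference at an adjusted p under 0.05. Over all autosomal genes the share was 12.7%. Some named genes were chosen by this difference or by the dKO difference that enters it, so the count follows in part from the choice. Where a group was at background throughout, the fitted value given here carries no size. The sex difference was more positive in dKO for 28. The largest were Gm7231 (7.67), A1bg (5.41), Slco1a1 (5.36), Serpina4-ps1 (4.70), Clec2h (4.31), Myh2 (4.26), NAP026880-1 (3.79), Defb19 (3.73) and Mup3 (3.72). They were followed by NAP033351-1 (3.45), Mc1r (3.42), C530036F05Rik (3.39), Olfr125 (3.18), Ces3b (3.17), Car3 (3.13), Slc22a28 (3.07), Nox4 (2.98), Slc22a30 (2.92) and Mup5 (2.60). Smaller were Epcam (2.59), Ciart (2.12), Ugt2b1 (1.63), Srd5a1 (1.54), Igf1 (1.45), Onecut1 (1.32), Cyp2c66 (1.27), Ghr (1.24) and Foxo1 (0.69). It was more negative in dKO for 31. The most negative were Slc7a11 (-9.47), Rbp7 (-7.85), ENSMUST00000098718 (-7.31), Ly6d (-7.04), Fam83a (-6.88), Mgst2 (-6.72), Cbr3 (-6.16), Akr1c18 (-5.93), Fgf21 (-5.84) and Tekt5 (-5.57). They were followed by Meltf (-5.50), Ccnb1 (-5.41), Hmmr (-5.11), Afp (-4.84), H19 (-4.77), Atp2b2 (-4.67), Cdk1 (-4.49), Hsd3b5 (-4.34), Foxm1 (-4.22) and Igf2 (-4.01). Nearer to 0 were Elovl3 (-3.85), Slc39a5 (-3.75), Abcc4 (-3.62), Mki67 (-3.11), Tenm4 (-2.91), Pla2g4f (-2.58), Mcm2 (-2.50), Col1a1 (-2.22), Cyp4a31 (-1.86), Myc (-1.79) and Cyp4a10 (-1.33).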

How the results depend on the processing

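The counts of genes called between dKO males and females, and in the difference from wild type, depended on the arrays and settings used. With only the 8 dKO arrays 1087 genes were called in dKO (713 higher, 374 lower), and with only the 4 treated groups the genotype comparison called 1379 (720 more positive). With normexp background the counts were 2176 in dKO (1384 and 792), 495 in wild type (306 and 189) and 1279 between genotypes (720 and 559). With array position as a covariate they were 1218 (784 and 434), 464 (272 and 192) and 678 (281 and 397), and with only arrays at the 4th position 1423 in dKO (883 and 540). Median centring gave 1453 higher in dKO and 668 more positive between genotypes, slide as a fixed block 863 more positive, and no filter on dim probes 1532 between genotypes (819 more positive). Chosen after seeing the data, leaving out dKO female replicates 2 and 4 gave 1015 in dKO (590 and 425) and 718 between genotypes (298 and 420), and leaving out dKO male replicates 1 and 4 gave 1459 (973 and 486) and 1012 (504 and 508). Leaving out 1 array gave 2241 to 5835 in dKO (1379 to 3667 higher, 862 to 2168 lower), the extremes without female replicates 4 and 3. It gave 674 to 1080 in wild type (354 to 582, 309 to 527) and 1455 to 4300 between genotypes (768 to 2793, 687 to 1507). The cause was not tested. Replicate numbers did not pair the samples (correlations -0.15, -0.05, 0.07 and -0.06), and the replicate block gave 3461 calls in dKO.

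Of 83 named genes past the threshold, 43 stayed past it in every alternative fit, of up to 25, and 40 were lost in at least 1. Signs turned for genes not called. Sult3a1 was -0.73 without female replicate 2 (up to 1.21 with 1 other array left out), -0.78 with slide as a fixed block and -0.89 without female replicates 2 and 4, under which Stat5b was -0.0604, Igf1 -0.0522, Cyp7a1 -1.04 and Glul -0.41. Cyp7a1 was -0.86 to 1.28 with 1 array left out (lowest without female replicate 2), Socs2 0.11 in both position settings, and Cyp2a4 -0.27 to 0.00702 with 1 array left out (highest without female replicate 3) and 0.0115 without male replicates 1 and 4. Glul was -0.24 to 0.16 with 1 array left out, lowest without female replicate 2 and -0.03 without female replicate 4, -0.00329 without male replicate 2, -0.06 without male replicate 4 and -0.000437 without male replicates 1 and 4. It was -0.000596 with the mean of probes, -0.00585 with normexp, -0.0671 with slide fixed, -0.00967 with slide random, -0.0432 with median centring and -0.14 with quantile normalization. Between the arrays of slide 2 alone the sign turned for Foxa3 (-0.24), Ghr (-0.22), Hnf4a (-0.10), Cdk1 (1.11), Ccnb1 (0.52), Hmmr (0.43), Foxm1 (0.10), Ly6d (0.21) and Fgf21 (0.35). Differences of genes near background are limited by their signal.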

Other observations

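Families of drug and steroid metabolising enzymes share members with the lists above, so their counts in part repeat those. Of 14 Ugt genes 7 were higher and none lower (median 0.81). The counts were 6 of 15 carboxylesterases and none (median 0.64), and 5 of 11 Cyp2c genes and none (median 0.96). Female replicate 2 was the lowest array in each. The mean level of Cyp2c genes was 4.13 to 4.45 in dKO males and 4.09, 0.84, 3.91 and 3.44 in dKO females, that of carboxylesterases 3.37 to 3.49 in dKO males and 2.72, 1.80, 3.26 and 2.80 in dKO females, and that of Ugt genes 4.45 to 4.79 in dKO males and 4.10, 3.05, 4.36 and 3.87 in dKO females. Without female replicate 2 the higher calls numbered 5 for Ugt (median 0.50), 4 for carboxylesterases (median 0.30) and 3 for Cyp2c (median 0.05). Many members of these families are close copies. Glutathione transferases were mixed, with 3 higher and 4 lower of 20, and so were Akr1 genes, with 3 each way of 14. Over all genes 12.6% were higher and 7.9% lower. No Cyp3a gene of 6 was called by limma, at an adjusted p under 0.05. Of 17 clade A serpins, which are protease inhibitors and plasma carriers, 7 were higher and none lower (median 0.92), and 7 and none without female replicate 2 (median 0.51).

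The share of tested genes higher in dKO males ran between 10.6% and 14.3% over the autosomes, and the share lower between 5.78% and 9.59%. Differences in the authors' deposited table correlated with those computed here at r = 0.989 over 18459 genes, with the same sign for 99.9% of 3779 called genes. That table gave 5111 of these genes a false discovery rate under 5%, of which 3390 (66.3%) were called here.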
